A study of Arabidopsis thaliana with 24 samples.

Results

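Pseudogenes are copies or remnants of genes that no longer encode an intact protein, and some are still transcribed. The genes described here were those that the platform annotation paired with a probe and whose type in the RefSeq annotation of the Arabidopsis thaliana assembly TAIR10.1 is pseudogene or transcribed pseudogene. Of 292 such genes with a probe, 123 had a value on all 6 days and were tested, among 10607 genes tested in all. RefSeq gave the type pseudogene to 112 of the 123 and the type transcribed pseudogene, which marks pseudogenes with transcript evidence, to 11. The type also takes in remnants of mobile elements. RefSeq names 2 members, Sadhu4-2 (AT1G03420) and SADHU1-2 (AT1G30835), as Sadhu non-coding retrotransposons, and gives no family for the members named below by locus alone.

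All plants were 35S:AP1-GR ap1 cal. These plants lack the floral meristem genes AP1 and CAL, so that their inflorescences keep forming meristems, and they express from the viral 35S promoter a fusion of AP1 with the hormone-binding part of a glucocorticoid receptor. Inflorescences were treated with 1 µM dexamethasone, which activates the fusion protein, and tissue rich in meristem cells was taken from about 25 pooled plants at each of days 0, 1, 2, 3, 4 and 5, in 4 biologically independent sets. No group without the transgene or without dexamethasone was analysed here, and day 0 served as the start of the time course. On each of the 24 arrays, decapped mRNA and total polyadenylated mRNA of the same tissue were hybridised together, with decapped mRNA in Cy5 on 2 arrays of each day and in Cy3 on the other 2.

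An mRNA carries a cap at its 5′ end, and removal of that cap by the decapping complex precedes digestion of the transcript from that end by the exonuclease XRN4. Nonsense-mediated decay, in which the UPF proteins act, sends transcripts with early stop codons into decay, and disrupted reading frames are common in pseudogenes. In Arabidopsis many pseudogenes lie in the gene-poor, transposon-rich regions around the centromeres, where DNA methylation and small RNAs keep transcription low. Decapped mRNA is a pool in which such decay intermediates are found.

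The deposited values ran from -10.53 to 10.07 and are read here as log2 ratios of decapped over total mRNA, so that a positive value means a higher signal in the decapped pool. Neither the log base nor the direction is stated in the sources used here; both are likely, the direction because decapped mRNA is the first channel on every array whatever its dye. If the ratio runs the other way, every "higher" below reads "lower". Correlations between arrays over all probes lay between 0.198 and 0.834, so no pair opposed each other. The ratio gives no level of a transcript, so tissue markers could be read only as ratios. Of 8 markers of other cell types, 1 was measured, EXP7, an expansin of root hairs, and it was lower, with a mean ratio of -1.17 ± 0.78 (SD, n = 24 arrays, adjusted p = 3.52e-07). How far a spot stood above background is unknown, and probe sequences were not used here, so signal from a related intact gene or from another copy cannot be told apart from that of the pseudogene.

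Fewer pseudogenes than protein-coding genes had values on every day. The share measured was 42.1% of 292 pseudogenes (40.9% of 274 of type pseudogene and 61.1% of 18 of type transcribed pseudogene), against 78.0% of 13399 protein-coding genes with a probe. A gene was left out where, on some day, its 4 values were the set of 4 that most probes shared on that day, which was read as no measurement. The 169 pseudogenes left out had values on 1 day (6 genes), 2 days (30 genes), 3 days (46 genes), 4 days (50 genes) or 5 days (37 genes). Their remaining single values lay within 0.25 of 0 in 56.4% of cases, against 31.3% for the 123 members and 20.3% for all genes tested. A shared set of values that was kept also touched the members more often, with 21 of 123 (17.1%) sharing their 4 values with another probe on a day, 15 of them on 1 day only, against 4.95% of protein-coding genes. The part that dim signal played in their ratios was not tested.

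Over the whole time course, pseudogene transcripts were more often higher than lower in decapped mRNA, and their ratios were small. Of the 123 members, 41 (33.3%) were higher in decapped mRNA and 23 (18.7%) were lower at an adjusted p under 0.05, and 59 were not called. Among all genes tested, 29.7% were higher and 43.5% were lower, so the members' share of higher calls was near that of all genes while their share of lower calls was less than that of all genes. The median ratio of the members was 0.14, with quartiles of -0.24 and 0.47, against a median of -0.16 and quartiles of -0.96 and 0.42 for all genes, and a median of -0.17 for protein-coding genes. Only 11 members (8.94%) had a mean ratio of size 1 or more, 6 above 0 (4.88%) and 5 below 0 (4.07%), against 33.6% of all genes, of which 9.81% were above and 23.7% below 0. Of the called members, 35 of the 41 higher ones and 18 of the 23 lower ones thus had means between 0 and 1 in size.

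**Figure D1:**
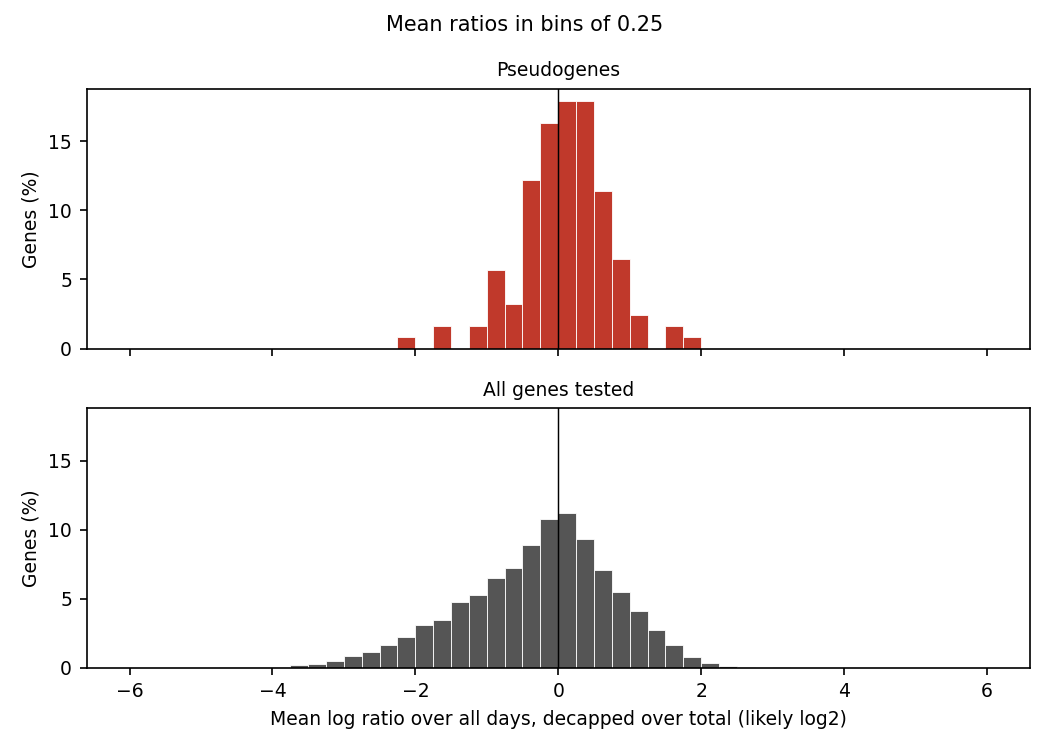
Mean log ratio over all days, in bins of 0.25 on the horizontal axis, with the percentage of genes in each bin on the vertical axis, for the 123 pseudogenes (above) and all 10607 genes tested (below). The pseudogenes end at -2.20 and 1.76, while all genes reach from -5.96 to 5.54 with a long tail below 0.

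The test was limma's moderated test on all 24 arrays with day means and dye orientation in the model, adjusted over all 10607 genes by Benjamini and Hochberg's method. The members spread somewhat more over arrays than other genes. Their median SD over the 24 arrays was 0.80, against 0.69 for all genes, and their median SE in the fit was 0.165, against 0.142. The counts depended on what was taken as a replicate. From the means of the 4 sets over days (n = 4), 17 members were higher (all genes: 21.1%) and 14 were lower (all genes: 35%), all of them also called in the same direction over arrays. Without set 4, 22 members were higher (all genes: 24.1%) and 14 lower (all genes: 36.7%). In both cases the members were called higher less often than all genes. Over the 24 arrays they were called higher slightly more often (33.3% against 29.7%). With each array centred on its median, the members' median became 0.30 and that of all genes 0.00. The members were then higher in 56 cases (45.5%, against 37.4% of all genes) and lower in 17 (13.8%, against 38.4%), which raised the share of higher ones among the called members to 76.7% with centring, against 64.1% as deposited.

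**Figure D2:**
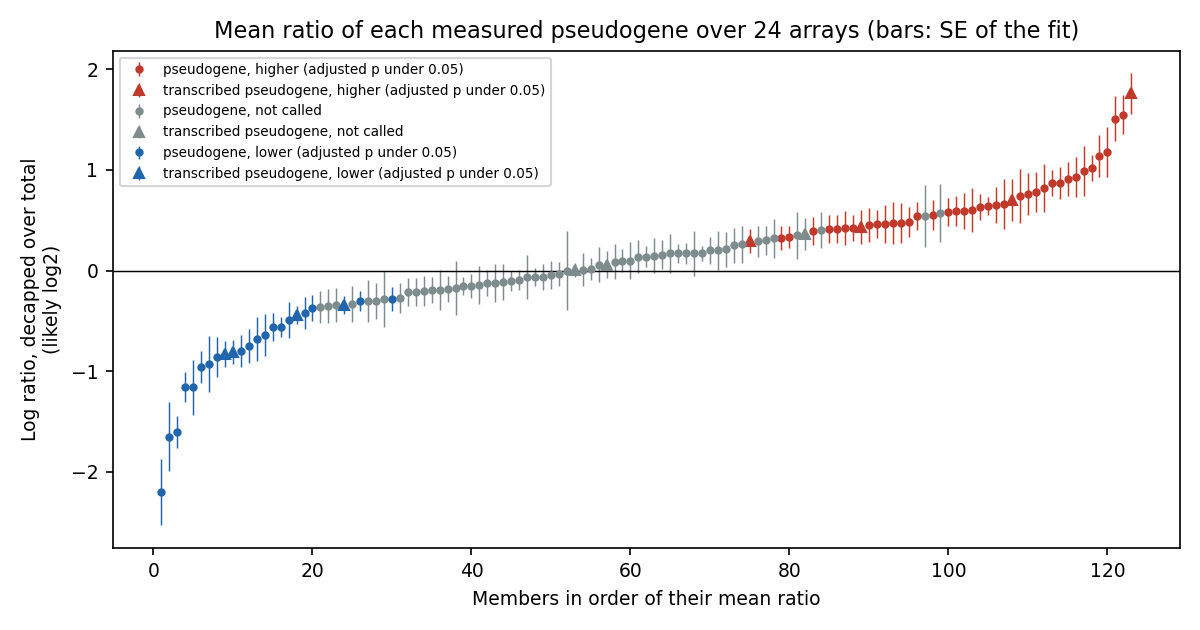
Mean log ratio of each of the 123 pseudogenes over 24 arrays (vertical axis, points, with bars for the SE of the fit), in order of that mean (horizontal axis). Triangles are transcribed pseudogenes and circles the other type; the 41 higher ones are red, the 23 lower ones blue and the 59 not called grey. Most called members lie within 1 of 0, and the members not called lie between -0.36 and 0.57.

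On the higher side, AT1G62860, AT3G42090 and AT3G60930 were the only members above 0 on all 24 arrays (2.44% of members, against 7.23% of all genes). AT1G62860, a transcribed pseudogene on chromosome 1, had, in sets 1 to 4, ratios of 2.54, 2.57, 1.11 and 1.50 on day 0. Day 1 gave 0.37, 2.76, 3.25 and 0.98 and day 2 gave 0.69, 2.86, 2.63 and 0.81. Day 3 gave 0.66, 1.90, 2.43 and 1.14, day 4 gave 0.59, 2.74, 2.49 and 0.66 and day 5 gave 1.40, 2.80, 2.36 and 0.92. Sets 2 and 3 were higher than sets 1 and 4 on each of days 1 to 5, without overlap, while on day 0 the high arrays were those of sets 1 and 2. The mean was 1.76 ± 0.93 (SD, n = 24 arrays, adjusted p = 1.16e-07), the highest among the members.

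AT3G42090, of type pseudogene on chromosome 3, had, in sets 1 to 4, ratios of 1.29, 2.55, 0.87 and 1.42 on day 0. Day 1 gave 0.28, 1.57, 2.98 and 1.09 and day 2 gave 0.12, 2.25, 2.37 and 1.45. Day 3 gave 0.08, 1.75, 2.58 and 1.28, day 4 gave 0.41, 2.66, 2.67 and 1.41 and day 5 gave 1.09, 1.72, 2.20 and 1.10. Set 1 was the lowest on days 1 to 5 and came near 0 on days 2 and 3. The mean was 1.55 ± 0.85 (SD, n = 24 arrays, adjusted p = 2.18e-07). Among these 3 members, AT3G60930 had the smallest mean and the tightest values, from 0.04 (day 2, set 1) to 1.36 (day 2, set 2) with a median of 0.61, and no set stood apart on every day. Its mean was 0.64 ± 0.33 (SD, n = 24 arrays, adjusted p = 1.27e-06). In the fit over 24 arrays, which estimates the spread from all days, the day means of all 3 were higher on each of the 6 days, as were those of 7.86% of all genes. With the 4 arrays of a day fitted alone, 0 members were called higher on days 1, 2 and 3. The share of all genes in those fits is not given here.

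Other members with high means were less even over arrays. AT4G03680 averaged 1.51 ± 1.15 (SD, n = 24 arrays) and ranged from -0.59 on day 1 in set 1 to 3.68 on day 3 in set 2. It was above 0 on 21 arrays and higher on 4 days. AT4G09290 averaged 1.18 ± 1.25, and its set means were 0.80, 0.76, 0.61 and 2.53 in sets 1 to 4. AT1G35650 averaged 1.14 ± 1.00, with set means of 0.50, 1.28, 0.82 and 1.96. In both, set 4 was the highest set. AT2G14600, the shortest member with a span of 222 bp in RefSeq, averaged 1.02 ± 0.63, was above 0 on 23 arrays and was higher on 4 days. AT4G05145 averaged 0.99 ± 1.34 and had a negative mean in set 3 (-0.32) beside 2.20 in set 4. It was called over the 24 arrays (adjusted p = 0.0016) and not without set 4 or from the 4 set means (adjusted p = 0.0678). The 10 highest were completed by AT2G10380 (0.93 ± 0.94), AT5G32161 (0.91 ± 0.78) and AT3G42110 (0.87 ± 0.83), with n = 24 arrays for each SD. AT3G42110 was above 0 on 23 arrays, and its single negative value was -2.20 on day 3 in set 2.

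On the lower side, the members were led by AT4G03916, AT3G49280 and Sadhu4-2. Sadhu elements are retrotransposon-derived sequences without a coding frame that are known in Arabidopsis for differing in expression and DNA methylation among strains. Sadhu4-2 had, in sets 1 to 4, ratios of -2.76, -0.77, -1.76 and -1.49 on day 0. Day 1 gave -0.43, -2.33, -2.35 and -1.77 and day 2 gave -1.31, -1.86, -1.66 and -0.81. Day 3 gave -0.81, -2.37, -3.57 and -1.65, day 4 gave -0.55, -2.26, -2.07 and -0.64 and day 5 gave -0.88, -1.76, -1.73 and -0.85. All 24 values were below 0, and on each of days 1 to 5 the values of sets 2 and 3 were lower than those of sets 1 and 4. The mean was -1.60 ± 0.79 (SD, n = 24 arrays, adjusted p = 1.99e-08). In the fit over 24 arrays, Sadhu4-2 was the only member whose day mean was lower on each of the 6 days (14.5% of all genes). With the 4 arrays of a day fitted alone, 0 members were called lower on days 1, 2 and 3, and the share of all genes is not given. In RefSeq Sadhu4-2 overlaps the protein-coding gene 2A6, with which the platform annotation paired no probe, and signal from that gene was not tested.

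SADHU1-2, the other Sadhu element, lay in the same direction with smaller ratios. In sets 1 to 4, its ratios were -1.57, -1.01, -1.29 and -1.63 on day 0. Day 1 gave -0.17, -2.22, -1.34 and -1.94 and day 2 gave -1.23, -1.41, -1.19 and -0.25. Day 3 gave -0.44, -2.24, -2.31 and -1.43, day 4 gave 0.01, -2.29, -1.11 and -0.95 and day 5 gave 0.50, -0.50, 0.01 and -1.77. Thus 21 of the 24 values were below 0, and the 3 above 0 came from sets 1 and 3 on days 4 and 5. The mean was -1.16 ± 0.80 (SD, n = 24 arrays, adjusted p = 9.56e-07), and the transcript was lower on 5 of the days, with day 5 as the exception. Its day 5 mean was -0.44, against -1.37 on day 0, and that difference was not called (adjusted p = 0.999).

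AT3G12450 and AT3G15330, both transcribed pseudogenes on chromosome 3, were together with Sadhu4-2 the only members below 0 on all 24 arrays (2.44% of members, against 12.4% of all genes). AT3G12450 ranged from -2.59 on day 0 in set 1 to just below 0 on day 2 in set 4, with a median of -0.68 and a mean of -0.83 ± 0.62 (SD, n = 24 arrays, adjusted p = 6.25e-06). AT3G15330 ranged from -2.08 on day 0 in set 1 to -0.01 on day 1 in set 3, with a median of -0.66 and a mean of -0.81 ± 0.52 (adjusted p = 4.79e-06). The lowest value of both came from the same array, day 0 in set 1, which held the lowest value of 13 members (10.6%) and of 24.9% of all genes. AT3G12450 was lower on 2 of the 6 days and AT3G15330 on 4.

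**Figure D3:**
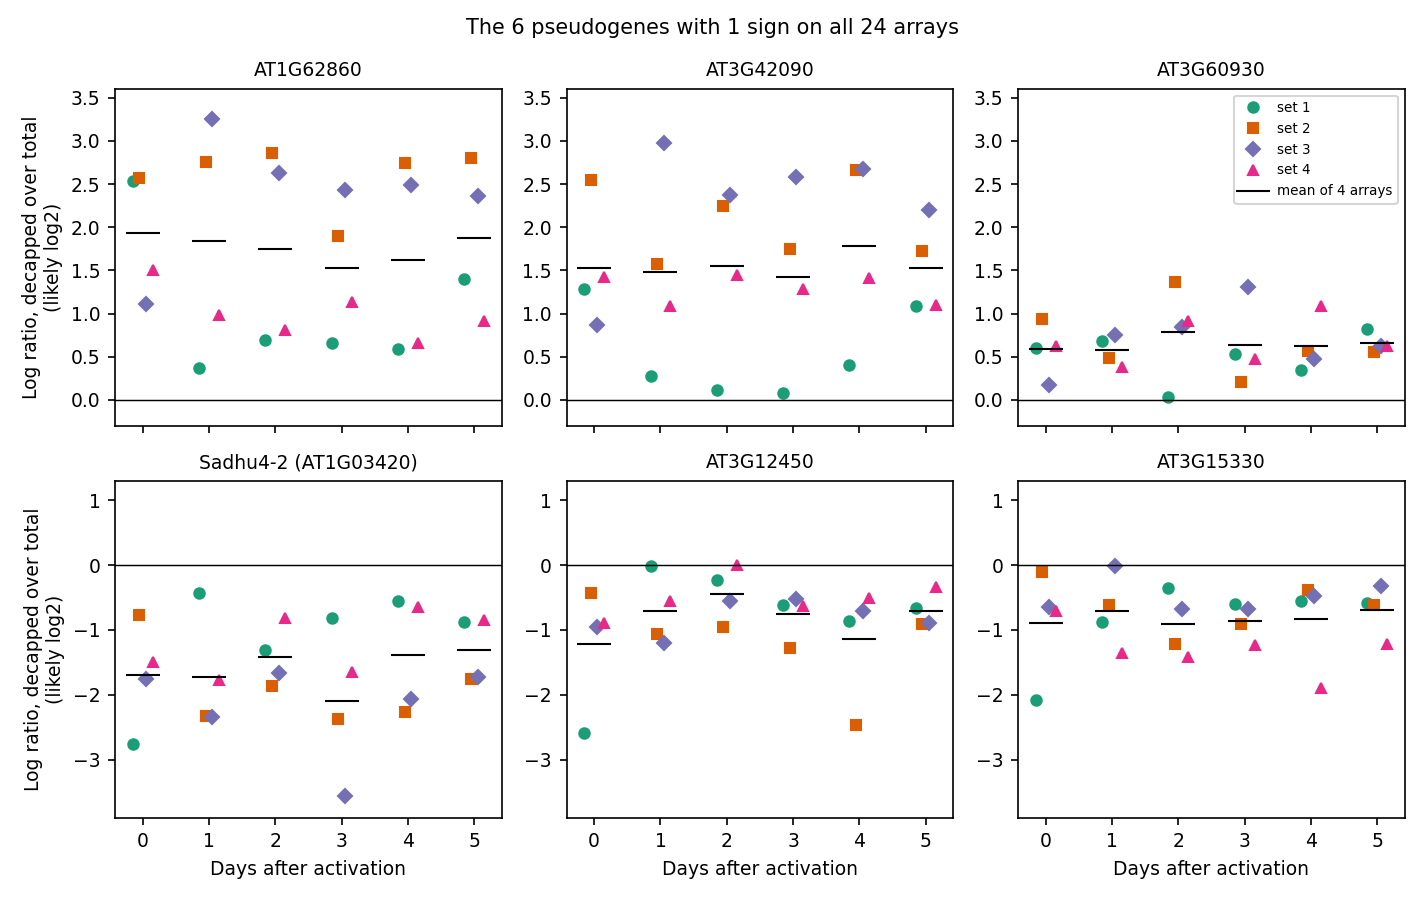
Log ratio (vertical axis) on each day after activation (horizontal axis) of the 6 pseudogenes with a single sign on all 24 arrays. Each symbol is 1 array, coloured by set, and each short line is the mean of the 4 arrays of that day; AT1G62860, AT3G42090 and AT3G60930 stay above 0, and Sadhu4-2, AT3G12450 and AT3G15330 stay below it.

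AT4G03916 had the lowest mean of the members and values that varied widely among sets. In sets 1 to 4, its ratios were -5.33, -2.36, -0.33 and -1.87 on day 0. Day 1 gave -1.81, -3.55, -1.43 and -1.53 and day 2 gave 0.54, -3.75, -2.27 and -2.19. Day 3 gave 1.11, -3.84, -1.76 and -5.25, day 4 gave -0.98, -2.45, -1.86 and -3.55 and day 5 gave -1.54, -2.62, -1.77 and -2.38. The values above 0 were both from set 1, which also held the lowest value of all, on day 0. The mean was -2.20 ± 1.53 (SD, n = 24 arrays, adjusted p = 4.26e-06), and the transcript was lower on 5 of the 6 days.

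For several lower members the sign itself differed by set. AT3G49280 averaged -1.65 ± 1.59 (SD, n = 24 arrays), with set means of -2.78 in set 2, -0.83 in set 3 and -3.23 in set 4, against 0.23 in set 1. AT3G44500 averaged -0.93 ± 1.31, with -1.88 in set 2 and -2.18 in set 4, against -0.04 in set 1 and 0.38 in set 3. AT3G33073 averaged -0.86 ± 0.95, with -1.32 in set 2, -0.30 in set 3 and -1.86 in set 4, against 0.06 in set 1. AT3G44500 and AT3G33073 were called over arrays (adjusted p = 0.005 and 0.000539) and not from the 4 set means (adjusted p = 0.131 and 0.0681), and AT3G44500 was also not called without set 2 or without set 4. AT1G47860, the longest member with a span of 9594 bp, averaged -1.16 ± 1.28 and ranged from -4.45 on day 1 in set 2 to 1.48 on the same day in set 3. AT2G07090 averaged -0.96 ± 0.85 and was below 0 on 20 arrays.

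The 11 transcribed pseudogenes, for which RefSeq holds transcript evidence, were called as often in either direction. Of them 4 were higher (36.4%), 4 were lower (36.4%) and 3 were not called, and their median was 0.06. The other type, 112 members, held 37 that were higher (33.0%) and 19 that were lower (17.0%), around a median of 0.15. Among all genes tested, 29.7% were higher and 43.5% were lower. Beside AT1G62860, the higher ones were AT1G60180 (0.70 ± 1.00, adjusted p = 0.00501), AT2G19200 (0.43 ± 0.84, adjusted p = 0.0295) and AT2G29610 (0.29 ± 0.66, adjusted p = 0.0399; SD, n = 24 arrays each). AT1G60180 had its lowest value, -0.33, on day 4 in set 2 and its highest, 4.11, on day 3 in set 4, and its set means were 0.68, 0.10, 0.48 and 1.54. From the 4 set means, none of these 3 was called (adjusted p = 0.0518, 0.136 and 0.129). The calls of AT2G19200 and AT2G29610 were also lost with sets as random blocks (adjusted p = 0.106 and 0.154). AT2G29610 lost its call when any of 12 single arrays or any of 3 sets was left out, and AT2G19200 when any of 5 single arrays or any of 3 sets was. AT2G19200 shared its 4 values with another probe on 4 days. The lower ones beside AT3G12450 and AT3G15330 were AT5G55420 (-0.44 ± 0.53, adjusted p = 0.000202), lower on 3 days, and AT5G09710 (-0.34 ± 0.72, adjusted p = 0.00225).

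AT5G09710 had the smallest p of all members in the test of any difference between days, but no difference passed the threshold over all genes. In sets 1 to 4, its ratios were -1.84, -1.80, -1.0 and -1.68 on day 0. Day 1 gave 0.10, 0.71, -0.22 and -0.44 and day 2 gave -0.30, -0.40, -0.03 and -1.12. Day 3 gave 0.47, 0.37, -0.38 and -0.18, day 4 gave -0.24, -0.01, -0.14 and -0.70 and day 5 gave 0.19, 0.87, -0.23 and -0.22. The 4 values of day 0 lay below all values of days 1, 3, 4 and 5, and overlapped those of day 2 only at -1.12 in set 4. The ratio of day 5 exceeded that of day 0 by 1.73 ± 0.32 (SE of the fit, adjusted p = 0.238), and that of day 3 exceeded that of day 0 by 1.65 ± 0.32 (adjusted p = 0.109). The unadjusted p of the F test over days was 0.000192, the smallest of the members, with an adjusted p of 1.0. With array weights, the day 5 difference was called (adjusted p = 0.0175). A fit that took the sets as random blocks called both differences (adjusted p = 0.0367 for day 5 and 0.0274 for day 3). In RefSeq this locus overlaps the protein-coding gene AT5G09711, with which no probe was paired, and when each array was centred on its median the mean of AT5G09710 over all days became -0.18 and was no longer called, nor was it from the 4 set means (adjusted p = 0.116) or without set 4.

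**Figure D4:**
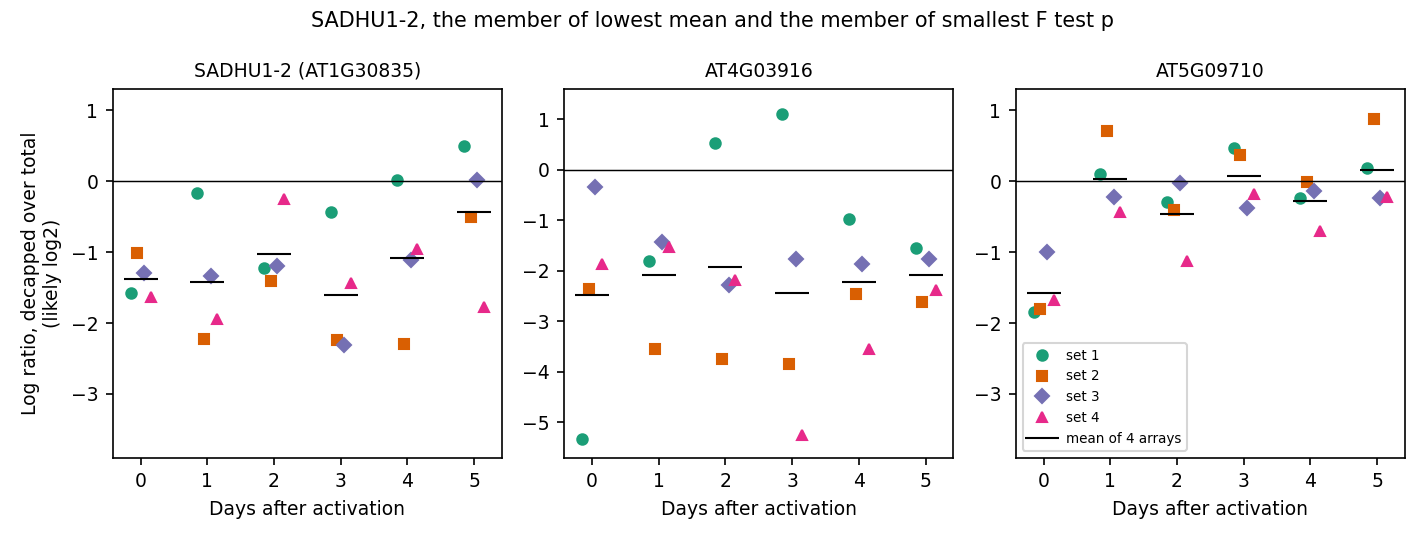
Log ratio (vertical axes, the middle one on a wider scale) on each day after activation (horizontal axes) of SADHU1-2, of AT4G03916, which had the lowest mean, and of AT5G09710, which had the smallest p of the F test over days. Symbols are single arrays coloured by set and short lines are means of 4 arrays; the 4 arrays of AT5G09710 on day 0 lie between -1.84 and -1.0.

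By limma, no pseudogene changed between days at an adjusted p under 0.05, in any of the 5 differences from day 0, the F test over days or the slope per day, and 0% of all genes were called in each. At an unadjusted p under 0.05, 4 members differed from day 0 on day 1 (all genes: 1.86%), 5 on day 2 (1.97%), 8 on day 3 (4.78%), 6 on day 4 (1.81%) and 5 on day 5 (3.11%). By the F test these were 3 members (1.34%) and by the slope 4 (2.48%). Data were simulated with each gene's spread over the arrays, a shift in a small part of the genes and no differences between sets. There the day 5 difference was recovered for 54% of the genes with a shift of 2 and for 0.5% of those with a shift of 1. Under these settings the fit could show only large changes, and the shares need not hold where sets differ or more genes change. Beside AT5G09710, the smallest p of the F test were those of AT5G55420 (0.0204) and of AT3G42620 (0.0389), which was picked out for this p. On day 3 the ratios of AT5G55420 were 0.19, 0.22, 0.28 and -0.15 in sets 1 to 4, against -1.06, -0.60, -0.91 and -1.26 at the start on day 0, without overlap.

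Few members were called on a given day, in the fit that estimates the spread from all 24 arrays. In order of days 0 to 5, 6, 11, 6, 10, 7 and 17 members were higher, while the shares of all genes that were higher were 11.6%, 13.7%, 14%, 12.3%, 14.1% and 18.3%. On the same days 10, 5, 4, 8, 6 and 4 members were lower, beside 27.7%, 22.2%, 19.7%, 27.1%, 23.8% and 20.8% of all genes. The highest daily count, 17 higher members or 13.8% on day 5, was thus still below the share of all genes. The members' median ratio was 0.11 on day 0, 0.23 on day 1, -0.04 on day 2, 0.17 on day 3, 0.01 on day 4 and 0.31 on day 5. That of all genes was -0.24, -0.12, -0.17, -0.23, -0.21 and -0.03 on these days, so the members' median was above it on each day. All 6 days were called for 4 members, 3 of them higher and 1 lower, beside 7.86% higher and 14.5% lower of all genes. No day was called for 77 members and 1 day for 30, and the shares of all genes are not given for these counts. No member was higher on 1 day and lower on another. With the 4 arrays of each day fitted alone, 1, 0, 0, 0, 3 and 20 members were higher and 4, 0, 0, 0, 4 and 8 were lower on days 0 to 5. The daily counts also moved with single sets. Without set 4 the higher members of day 5 numbered 4, and without set 1 the lower members of day 3 numbered 20. The shares of all genes in these fits on fewer arrays are not given here, so these counts are not set against all genes.

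The arrays of a day differed in how far the pseudogenes spread. The middle spread of the members (the distance between their quartiles) was 0.32 to 0.96 on the arrays of set 1 and 0.33 to 0.81 on those of set 3. It was 0.83 to 1.65 on those of set 2 and 0.67 to 2.04 on those of set 4. It was smaller than that of all genes on 23 of the 24 arrays, where all genes spread by 0.88 to 2.14. The members' median was above that of all genes on 20 arrays. It was below on day 0 in set 2, day 1 in set 3, day 2 in set 1 and day 3 in set 3. Those arrays all had decapped mRNA in Cy3. The highest value of 16 members (13.0%) came from day 3 in set 4 and that of 13 members (10.6%) from day 1 in set 4, against 2.94% and 2.63% of all genes. The lowest value of 20 members (16.3%) came from day 3 in set 2, against 14.4% of all genes.

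**Figure D5:**
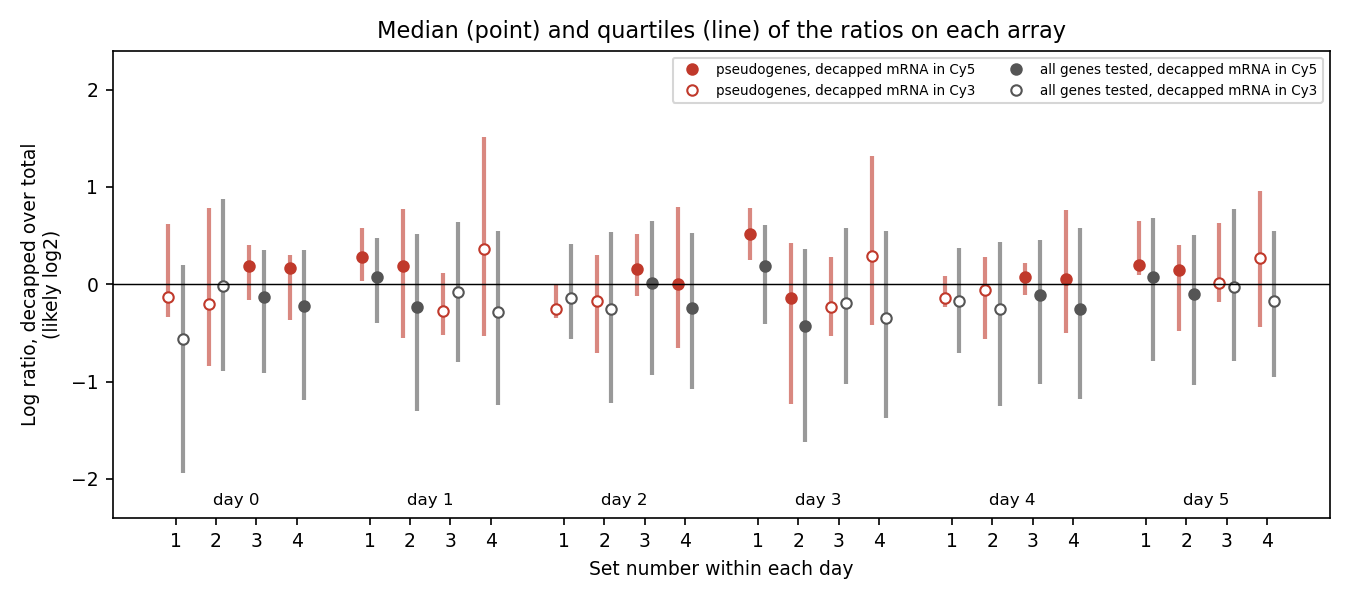
Median (point) and quartiles (line) of the log ratios (vertical axis) of the 123 pseudogenes (red) and all genes tested (grey) on each of the 24 arrays, by set within day (horizontal axis). Filled points are arrays with decapped mRNA in Cy5 and open points those with decapped mRNA in Cy3. The pseudogenes lie above all genes on 20 arrays, and the remaining arrays all had decapped mRNA in Cy3. The widest red lines are in sets 2 and 4.

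The members' median differed with the dye orientation, but not alike in every set. On the 12 arrays with decapped mRNA in Cy5 that median ran from -0.14 to 0.52 (middle value 0.17), and on the 12 with decapped mRNA in Cy3 it ran from -0.27 to 0.36 (middle value -0.14). The median of all genes ran from -0.43 to 0.19 on the Cy5 arrays and from -0.56 to -0.02 on the Cy3 arrays. In set 4 the Cy3 arrays were the higher ones, with members' medians of 0.36, 0.29 and 0.27 on days 1, 3 and 5. On the Cy3 arrays of the other sets the members' median ran from -0.27 to 0.01. The fitted dye term had a median of 0.05 over the members, against 0.0 over all genes. The dye term of the fit was called for 0 members at an adjusted p under 0.05, against 0.698% of all genes, and for 7 members (5.69%) at an unadjusted p under 0.05, against 7.12% of all genes. Each day held both orientations equally, and without the dye term 43 members were higher and 23 lower. The part of dim spots in this dye difference was not tested.

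Members whose values were shared with another probe on some day stood higher than the rest. Of these 21, 9 were higher (42.9%) and 1 was lower (4.76%), their median was 0.40, and none had a mean of size 1 or more. The 102 members that shared no values included 32 that were higher (31.4%) and 22 that were lower (21.6%), and their median was 0.10. Among all genes tested, 29.7% were higher and 43.5% were lower, so the share of higher calls without shared values was near that of all genes. With every shared set of 4 values left out, 103 members remained, of which 33 were higher (all genes: 30%) and 23 lower (all genes: 45.3%). AT5G44415 was the only member with 2 probes, 1 of them with values on only 12 arrays, those of days 1 to 3. On day 1 that probe gave 0.98, -0.48, 0.32 and 1.45 in sets 1 to 4, while the other gave -0.27, 2.42, 0.62 and 3.08. On day 2 the probe with 12 values stood at -0.02 or 0.02, and on day 3 at -0.14 or 0.14. The averaged ratio of AT5G44415 was 0.55 ± 0.73 (SD, n = 24 arrays, adjusted p = 0.0027) and mixes these probes on days 1 to 3 only.

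The members were short and lay among other pseudogenes. Their median span in RefSeq was 1152 bp, with a range of 222 to 9594 bp, against 2190 bp for protein-coding genes. In the span class up to 1000 bp the median ratio was 0.09 for 53 members, against -0.18 for protein-coding genes, and in the class above 1000 and up to 2000 bp it was 0.27 for 38 members, against -0.36. In the class above 2000 and up to 3000 bp it was 0.55 for 11 members, against -0.23, and above 3000 bp it was -0.06 for 21 members, against 0.13. The members were thus above protein-coding genes in the 3 shorter classes and below them in the longest.

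Among the 20 nearest annotated genes of a member, a median of 45% were pseudogenes, against 0% for a protein-coding gene, and 57 members had a pseudogene on both sides. The 31 members with more than 75% pseudogenes around them had a median ratio of 0.17, and 9 of them (29.0%) were higher and 2 (6.45%) lower. The 51 members with up to 25% had a median of 0.06, and 17 of them (33.3%) were higher and 12 (23.5%) lower. In the classes between, 38.9% of 18 members (over 25 to 50%) and 34.8% of 23 (over 50 to 75%) were higher. In these 33.3% and 13.0% were lower, and the medians were 0.11 and 0.14. The members' share of higher calls thus did not rise with density, while their median rose from class to class. Protein-coding genes in the densest class (20 genes) had a median of 0.18, with 45.0% higher and 15.0% lower. In the sparsest class (10012 genes) their median was -0.18, with 29.5% higher and 44.2% lower. Median ratios of the protein-coding genes thus also stood higher where pseudogenes were dense, and no test of this order was made.

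By chromosome, 19 members lay on chromosome 1, 30 on chromosome 2, 41 on chromosome 3, 23 on chromosome 4 and 10 on chromosome 5. Their medians were 0.01, 0.08, 0.14, 0.36 and 0.30 in that order. Adjacent members did not always share a direction. Of 5 pairs of members next to each other, 3 had means of the same sign. The other pairs were AT4G03680 (1.51) beside AT4G03690 (-0.30), and AT4G09390 (0.58) beside AT4G09400 (-0.56). The 4 members that overlap a protein-coding gene in RefSeq were Sadhu4-2, AT1G47860, AT5G09710 and AT2G15800, and of the overlapped genes SQN (a cyclophilin, beside AT2G15800) was measured, with a mean ratio of 0.23 (adjusted p = 0.0493).

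Genes of the decay machinery itself were measured for 4 of the 14 listed. Of these, 3 were higher in decapped mRNA and 0 were lower, with a median of 0.62, beside 29.7% and 43.5% of all genes. UPF2, a core factor of nonsense-mediated decay, averaged 0.89 ± 0.55 (SD, n = 24 arrays, adjusted p = 1.6e-06) and was above 0 on 23 arrays. VCS, the scaffold of the decapping complex, averaged 0.64 ± 1.02 (adjusted p = 0.00696), and PAT1, an activator of decapping, averaged 0.59 ± 0.84 (adjusted p = 0.00373). LSM1B, a subunit of the LSM ring that binds decaying transcripts, averaged 0.16 ± 0.32 and was not called (adjusted p = 0.0887). None of 10 listed genes of RNA silencing, the system that acts on many transposon remnants, was paired with a probe by the platform annotation. These ratios describe the transcripts of these factors and not their activity.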

How the data were processed

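The authors deposited 1 table of 26102 probes on 24 arrays, and its values were read as log2 ratios of decapped over total mRNA. What background correction and normalization the authors used, the log base and the direction: none is given in the sources used here. Medians of the array columns lay between -0.14 and 0.30.

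By the platform annotation, 13960 probes had 1 gene, 0 had several and 12142 were unnamed. RefSeq (TAIR10.1) held the genes of 13912 of the 13960 probes. On each day, the most common set of 4 values shared by probes (770 to 4424 probes) was removed. Probes of a gene were averaged, and 10607 genes with values on all days were fitted with limma 3.58.1 (R 4.3.3), with day means and dye orientation, and adjusted by Benjamini and Hochberg's method at a threshold of 0.05. Members and lists were described by counts and medians beside all genes, with no test of a list. Array number limits the precision.

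Named were the 10 highest and 10 lowest called members, called transcribed pseudogenes, members called between days or by dye, members with more than 1 probe, members with a symbol, and up to 3 members on each side with 1 sign on 24 arrays. Members and lists were chosen with earlier results of these data known. The fit was tested on simulated data of 10607 genes, where mean shifts of 0.5, 1 and 2 were recovered for 40%, 91% and 100% of the shifted genes. Only a small part of the genes was shifted and the simulated arrays held no sets, so these shares need not hold for the real arrays. Alternatives covered normalization, shared values, dye, blocks, weights and left-out sets or arrays.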

Additional observations from a re-analysis of the deposited data

Results flagged for a closer look

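For the 27 named members, 168 groups of 4 arrays were checked (each member on each day, and the members' median on each day), and in 11 of them 1 array stood far from the other 3, where chance gives about 1 group in 20. On day 3, AT1G60180 had 4.11 in set 4, while the other arrays had 0.87, 0.29 and 0.28, AT3G42110 had -2.20 in set 2, while the others had 1.05, 0.62 and 0.78, and AT3G12450 had -1.28 in set 2, while the others had -0.61, -0.52 and -0.63. On day 4, AT3G15330 had -1.89 in set 4, while the others had -0.56, -0.39 and -0.48, AT2G14600 had 0.11 in set 1, while the others had 1.26, 1.13 and 1.31, and AT4G05145 had -0.25 in set 3, while the others had 2.24, 1.97 and 2.36. On day 2, AT4G09290 had 2.88 in set 4, while the others had 0.68, 1.03 and 0.96, AT5G44415 had -0.27 in set 1, while the others had 0.71, 0.79 and 0.78, and AT5G55420 had -0.76 in set 1, while the others had 0.18, 0.05 and 0.13. AT2G29610 had 1.40 on day 0 in set 1, while the others had 0.08, 0.10 and 0.12, and AT3G42110 had 1.61 on day 5 in set 3, while the others had 0.84, 0.86 and 0.96. No set held all of these arrays. The day 2 values of AT5G44415 are means of 2 probes, of which 1 stood at -0.02 or 0.02 on that day.

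AT2G19200 was the only member of the 123 with all 4 arrays on one side of 0 on a day and all 4 on the other side on another day, against 1.54% of all genes. Its mean was 0.65 on day 5, with all arrays above 0, and -0.14 on day 4, with all arrays below 0. The day 4 values lay near 0, at -0.14, -0.01, -0.09 and -0.32 in sets 1 to 4, and this member shared its 4 values with another probe on 4 days. The difference between days 4 and 5 was not tested.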

How the results depend on the processing

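Settings that moved no count by over 1.5 times are not listed, and no named member reversed its direction. Where no share of all genes stands beside a count below, none is given here, so it shows only how the members' calls moved. From set means (n = 4), 17 members were higher and 14 lower over all days. The share of higher members was then below that of all genes (21.1%). With set as a random block (correlation 0.165), 25 were higher and 17 lower, and at a threshold of 0.01, 26 were higher and 18 lower. Leaving out sets or arrays gave 22 to 45 higher, 14 to 29 lower and a median of 0.07 to 0.17.

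On single days, array weights gave 10 higher and 16 lower on day 0, 13 and 11 on day 2, 21 and 16 on day 3, 13 and 15 on day 4, and 35 and 11 on day 5. Centring arrays gave 13 higher on day 0, 2 lower on day 2, and 20 and 11 higher on days 3 and 4. Centring with scaling gave 11, 17, 11 and 13 higher on days 0, 1, 2 and 4, and 5 and 3 lower on days 3 and 4. With no shared value left out, 2 were lower on day 2 and 1 on day 5. At a threshold of 0.01, 1, 1, 1, 2, 1 and 3 members were higher on days 0 to 5, and 2, 0, 2, 2 and 0 were lower on days 1 to 5. Fitting the 4 arrays of a day alone gave 1 higher on day 0, 0 on days 1, 2 and 3 and 3 on day 4, and 4, 0, 0, 0 and 8 lower on days 0, 1, 2, 3 and 5. Leaving out sets or arrays gave 3 to 9 higher and 7 to 12 lower on day 0, 1 to 12 and 1 to 9 on day 1, 0 to 10 and 0 to 8 on day 2, 2 to 12 and 2 to 20 on day 3, 1 to 10 and 1 to 11 on day 4, and 4 to 20 and 0 to 6 on day 5. Fits on fewer arrays have fewer degrees of freedom, and for the other settings the cause was not tested.

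The labels do not say whether a set number marks a shared batch of plants over days, and not every pair of arrays of 1 set deviated together. Of 60 pairs of such arrays, 43 correlated above 0.1 (median 0.233, range -0.248 to 0.716), and 21 of 24 arrays were nearest to their own number, but only 1 of the 4 arrays of day 0 was. The replicate block gave 45 higher and 25 lower over all days. It gave 11, 10, 14, 14 and 8 lower on days 1 to 5 and 16 higher on day 3. With the block, AT5G09710 was called for day 3 against day 0 (adjusted p = 0.0401) and day 5 against day 0 (0.0422), so 1 member was called in each. With the random block it was called in both too (0.0274 and 0.0367), and with array weights on day 5 (0.0175). Its adjusted p for day 3 against day 0 was 0.109 with all arrays and 1.0 without set 4. Leaving out sets or arrays gave 0 to 1 members for day 3 against day 0 and 0 members for the other contrasts between days. The 1 member was AT2G12700 without set 1 (-3.31, adjusted p = 0.0422), where 111 genes were called, and it was picked out for this call.

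Of the 27 named members, 20 kept their direction and call in every one of the 39 settings in which they were tested. AT5G44415 has no value with 1 probe only, nor AT1G60180 and AT2G19200 with every shared set left out. The other 7, AT1G60180, AT2G19200, AT2G29610, AT3G33073, AT3G44500, AT4G05145 and AT5G09710, lost the call in 40 of the 1050 combinations of member and setting that were run. AT2G29610 lost it in 18 of them and AT2G19200 in 11.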
